A study of Mus musculus with 16 samples.

Results

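The Kruppel-like factors described here are the 9 genes Klf2, Klf3, Klf4, Klf5, Klf6, Klf7, Klf9, Klf10 and Klf13, followed through a study of mouse embryonic fibroblasts treated with trichostatin A and dipyridyl. They were chosen by symbol, with earlier results of these data known. They are 9 of the 18193 genes with a probe set of a single symbol. All their probe sets were taken, 33 of the 45101 on the array. Shares of Klf sets called below therefore describe these 9 genes and no wider family. A probe set is a group of short probes for 1 transcript region, and its signal is a scaled fluorescence intensity, so that signals were compared between arrays and not between probe sets. RNA was measured on 16 Affymetrix Mouse430_2 arrays, 1 for each of 4 fibroblast lines under 4 treatments.

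Primary fibroblasts had been grown from e14.5 embryos, given a Cre adenovirus at passage 3 and expanded at least 100-fold before treatment. The triCH1 class comprised triCH1flox1 (CBP CH1/flox; p300 CH1/CH1) and triCH1flox2 (CBP CH1/CH1; p300 CH1/flox), in which CH1 stands for an allele whose CH1 domain had been deleted. Their controls were flox1 (CBP +/flox) and flox2 (p300 +/flox), so every line had also received Cre and carried 1 conditional allele. CBP and p300 are histone acetyltransferases and coactivators, and the CH1 domain is a surface on which they hold transcription factors. Subconfluent cells of each line received 100 ng/ml trichostatin A (TSA), an inhibitor of histone deacetylases, followed after 30 min by 100 µM dipyridyl (DP), an iron chelator that stabilises the hypoxia-inducible factors. The other arms received TSA then ethanol (EtOH), ethanol then DP, or ethanol at both steps (vehicle), and RNA was taken 3 h after the second addition. Each line was cultured once per treatment in these data, and the genotypes within a class are not the same. The p-values of treatment comparisons below therefore measure how a change varied between the lines of a class, culture and array noise included. Those of the classes averaged over treatments measure the spread between lines.

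Kruppel-like factors are DNA-binding proteins with zinc fingers at the carboxyl end, which recognise GC-rich and CACCC elements in promoters and enhancers. Their amino ends differ and set their action: some recruit acetyltransferases such as CBP and p300 and activate, others recruit the corepressor CtBP or the Sin3a complex, which contains histone deacetylases, and repress. In fibroblasts and other mesenchymal cells members of the family are known as regulators of growth, differentiation and the response to injury, and several are rapidly induced by serum or growth factors.

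Promoters were examined because the family acts through GC-rich elements and several members fell with TSA while Klf2 and Klf4 rose. RefSeq sequence of GRCm38.p6, from 250 bases before to 50 after the annotated start, was at hand for 7 of the 9 genes, all but Klf5 and Klf10. The promoters of Klf2 at chr8:72318812-72319111 (+ strand), Klf3 at chr5:64803271-64803570 (+ strand), Klf6 at chr13:5861239-5861538 (+ strand) and Klf7 at chr1:64121340-64121639 (- strand) are given 5′ to 3′ on the gene's strand, since the TSA calls of these 4 genes held under all 17 alternative settings run. Capitals mark GC boxes, which read GGGCGG on either strand. They also mark boxes of the letters CACCC, on either strand, which may share a base with a GC box that abuts them. In Klf2 they further mark a match to the MEF2 site, which opens with CTA and, after 4 bases of any kind, closes with TAG.
Klf2: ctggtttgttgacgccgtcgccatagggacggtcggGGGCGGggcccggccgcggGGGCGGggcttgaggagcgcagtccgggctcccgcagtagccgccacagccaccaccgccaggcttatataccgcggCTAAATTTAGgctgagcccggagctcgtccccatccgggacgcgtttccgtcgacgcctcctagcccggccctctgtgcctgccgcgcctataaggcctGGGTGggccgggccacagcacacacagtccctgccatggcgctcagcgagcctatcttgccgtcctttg
Klf3: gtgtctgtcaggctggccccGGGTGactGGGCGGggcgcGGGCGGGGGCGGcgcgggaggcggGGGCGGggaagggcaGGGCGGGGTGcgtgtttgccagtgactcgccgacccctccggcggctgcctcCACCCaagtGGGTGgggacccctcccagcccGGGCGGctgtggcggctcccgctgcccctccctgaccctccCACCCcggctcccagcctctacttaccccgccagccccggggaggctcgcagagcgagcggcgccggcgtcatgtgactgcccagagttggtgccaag
Klf6: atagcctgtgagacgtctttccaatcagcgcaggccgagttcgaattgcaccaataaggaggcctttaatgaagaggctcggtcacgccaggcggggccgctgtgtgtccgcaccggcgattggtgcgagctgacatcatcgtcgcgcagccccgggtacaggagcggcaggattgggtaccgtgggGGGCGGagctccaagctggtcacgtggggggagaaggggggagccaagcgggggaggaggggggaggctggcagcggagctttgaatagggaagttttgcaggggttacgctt
Klf7: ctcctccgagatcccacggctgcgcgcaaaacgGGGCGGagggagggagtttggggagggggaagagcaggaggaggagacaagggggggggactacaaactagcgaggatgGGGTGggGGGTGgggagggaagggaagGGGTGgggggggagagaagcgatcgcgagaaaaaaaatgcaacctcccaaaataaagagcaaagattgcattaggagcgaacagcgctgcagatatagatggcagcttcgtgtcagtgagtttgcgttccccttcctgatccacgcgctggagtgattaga

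The GC box was present in 6 of the 7 Klf promoters, against 35.7% of all 32851 promoters of that length. Only the Klf9 promoter lacked it, whereas that of Klf3 held 6 copies. The CACCC box was found in 5 of 7, against 57.5% of all promoters, with 5 copies in Klf3 and 3 in Klf7. The MEF2 pattern, which belongs to the factors that drive Klf2 in endothelium, occurred in Klf2 alone of the 7, 118 bases before the start, and in 3.69% of all promoters. The core of the cyclic AMP element (TGACG) was in 5 of 7 against 20.8%, the full element (TGACGTCA) in 0 of 7 against 1.79%, and the hypoxia response core (ACGTG or GCGTG) in 6 of 7 against 43.8%. The cyclic AMP core can overlap the hypoxia core and lies within the full element. The TATA box (TATAAA) was in 0 of 7 against 13.6%, and the CCAAT box (CCAAT) in 3 of 7 against 37.4%. G and C made up a median of 69.3% of the 7 promoters, range 58.3% to 76.7%, and of 52.7% of all promoters. The letters describe these windows only.

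The arrays were scaled by their submitters to a common target signal of 500. The vehicle array of flox1 stood apart, with a 3′ to 5′ signal ratio of 2.59 for Gapdh against 0.907 to 1.26 on the other 15 arrays, and of 2.07 for actin against 1.29 to 1.63. An 18S ribosomal RNA probe set read 10718 there and 7428 for flox2 with DP, where the remaining 14 arrays read 981 to 3147. By the array identifiers in the labels, 12 arrays belonged to 1 series and 4 to another (triCH1flox1 with TSA+DP, TSA and DP, and flox2 with TSA+DP), which holds no vehicle array. All 8 fibroblast markers had signals of at least 200 on every array, summing to 149477 to 184903 in triCH1 lines and 164500 to 196260 in control lines. Among them Thy1 ran from 3415 to 5076 on triCH1 arrays and from 5890 to 8280 on control arrays, while the others overlapped between the classes. The 4 endothelial markers were below 200 throughout. Of 4 macrophage markers, Csf1r reached 200 on 13 arrays, Adgre1 on 4, Ptprc on 1 and Aif1 on 0. Of 4 epithelial markers, Epcam reached 200 on 15 arrays (up to 461 in triCH1 and 1121 in control lines) and Krt18 on 11, while Cdh1 and Krt8 did so on 0; the part of such signals in the results was not tested. Bnip3, a hypoxia-inducible mitophagy gene used to check DP, was 3.40 ± 0.09 higher on the log2 scale in DP than in vehicle cells (SE; adjusted p = 9.15e-13). Cdkn1a, often raised by deacetylase inhibitors and used to check TSA, was 0.28 ± 0.10 lower in TSA cells (adjusted p = 0.0464).

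Of the 33 Klf probe sets, 27 reached the filter of a signal of at least 200 on 2 or more arrays and were tested in limma, in 1 fit over 19895 sets, on log2(signal + 50), with a term for each line. The 6 that did not (2 of Klf3, 3 of Klf9 and 1 of Klf13) ran from 10.2 to 214 over all arrays. Of the tested sets, 16 were at 200 or more on all 16 arrays. Another 4 were there on fewer than 8, namely Klf6 1459718_x_at and Klf5 1430255_at on 2 arrays, Klf9 1436952_at on 3 and Klf3 1421604_a_at on 7, and a set that enters through a group in which it is high had to differ, so their changes carry little weight. Each gene is represented below by its brightest set unless a set is named, and signals are listed in the order triCH1flox1, triCH1flox2, flox1, flox2.

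**Figure D1:**
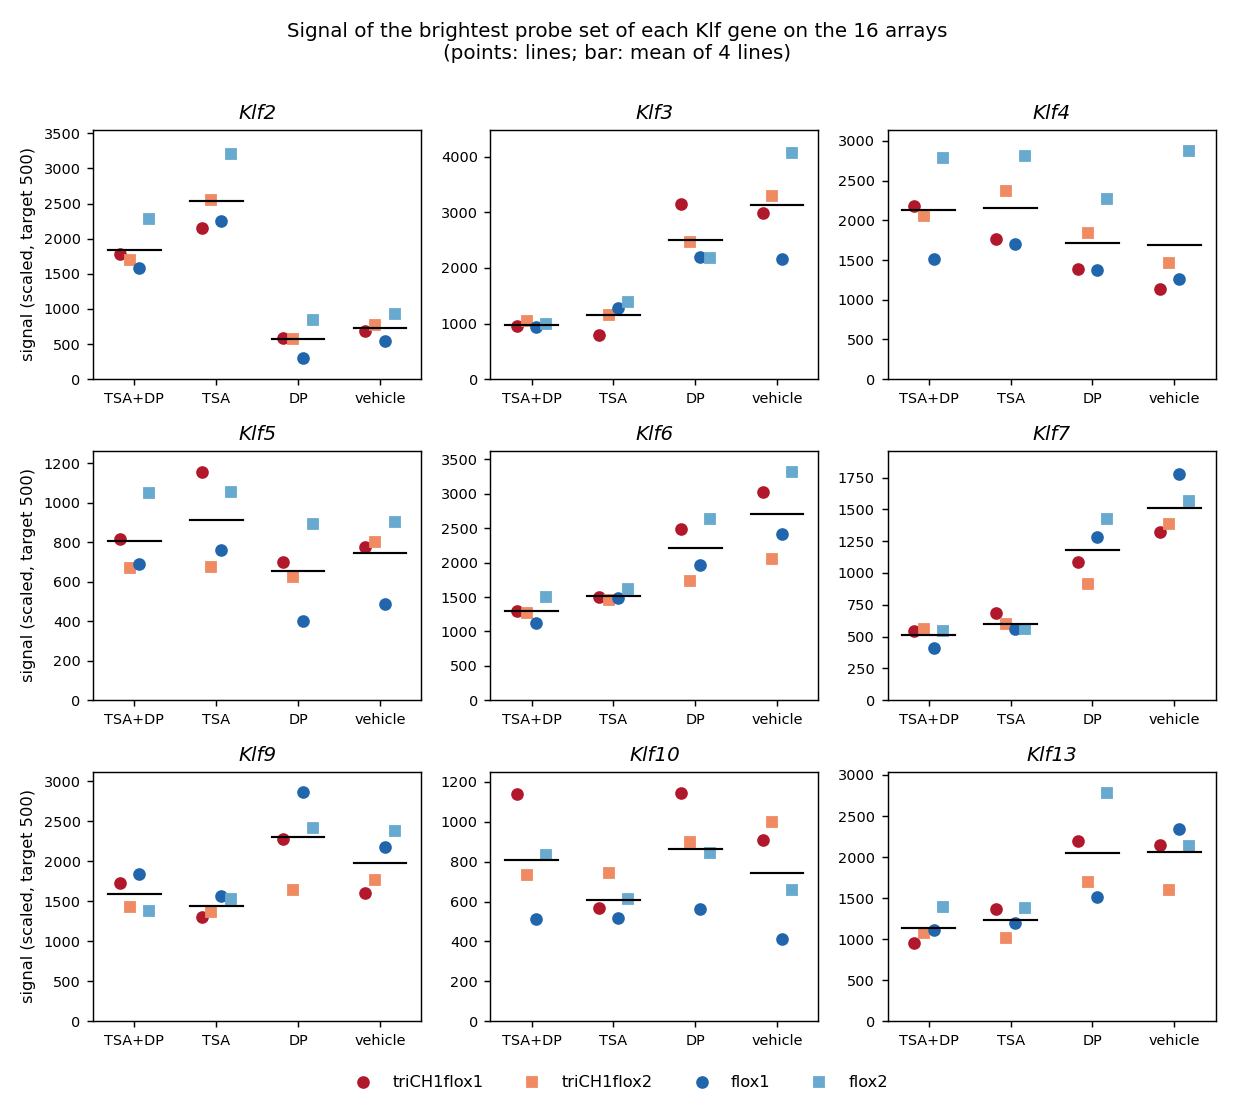
Signal of the brightest probe set of each of the 9 Klf genes (scaled intensity, vertical axes from 0) under TSA+DP, TSA, DP and vehicle; each point is 1 line on 1 array (red, triCH1; blue, control) and each bar the mean of 4 lines. Klf2 is high on all 8 arrays with TSA, Klf3, Klf6 and Klf7 are low there, and Klf10 shows no separation.

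By brightest set, Klf2 rose with TSA, and Klf3, Klf6, Klf7, Klf9 and Klf13 fell, in all 4 lines. Klf4 rose less, and was up in 3 of them. In RNA from whole cultures, fewer cells of a type and less RNA per cell cannot be told apart. Past the threshold of an adjusted p of 0.05 were 16 of the 27 Klf probe sets, 2 higher and 14 lower, or 59.3%, against 22.2% of all 19895 sets. Over all sets, rises (12.3%) slightly outnumbered falls (9.9%), and the median change was 0.02 on the log2 scale, against -0.50 over the 27 Klf sets. Among sets at 200 or more on every array, 11 of 16 Klf sets were called (68.8%), against 28% of 11114. The 8 arrays with TSA lay all above or all below the 8 without it in 6 of 27 Klf sets, against 9.35% of all sets. By brightest set, 2 genes rose, 5 fell and Klf5 and Klf10 passed in neither direction. The share called over the brightest sets of all genes is not given, so these gene counts have no background beside them.

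Klf2, the lung and endothelial member that is induced by laminar flow and keeps T cells quiescent, had the largest change of the family. Its signals were 1783, 1695, 1586 and 2273 in TSA+DP cells, 2151, 2547, 2246 and 3207 in TSA cells, 590.2, 571, 306 and 840.2 in DP cells, and 689, 769.7, 539 and 924 in vehicle cells. Every array with TSA was above every array without it. TSA changed Klf2 by 1.74 ± 0.14 (SE; adjusted p = 7.84e-07) on the log2 scale, 3.33-fold up, with line values of 1.57, 1.66, 1.96 and 1.74. It stood at rank 80 from the top of the 19895 sets. In order, its level was highest with TSA, next with TSA+DP, then in vehicle and lowest with DP; the differences of -0.45 from adding DP to TSA (adjusted p = 0.719) and of -0.37 from DP alone (adjusted p = 0.323) did not pass, though all 4 lines were down in both. Endothelial markers Pecam1, Cdh5, Kdr and Tek were below 200 on all 16 arrays.

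Klf4, a factor of epithelial differentiation and of reprogramming to pluripotency, rose less. Its signals were 2176, 2052, 1516 and 2787 in TSA+DP cells, 1764, 2371, 1698 and 2805 in TSA cells, 1393, 1844, 1371 and 2265 in DP cells, and 1138, 1457, 1260.3 and 2877 in vehicle cells. TSA and vehicle arrays overlapped, and flox2 was the highest line under every treatment. The change with TSA was 0.42 ± 0.12 (SE; adjusted p = 0.018), with line values of 0.61, 0.68, 0.42 and -0.04, so 3 of 4 lines were up. Without the flox1 vehicle array it was 0.32 (adjusted p = 0.0883), and within the larger array series 0.44 (adjusted p = 0.124). Leaving out triCH1flox1, triCH1flox2 or flox1 also ended the call (adjusted p = 0.0606, 0.0934 and 0.191), and over all alternatives the adjusted p ran from 0.0121 to 0.303. The dimmer set, 1417395_at, gave 0.43 ± 0.21 (SE; adjusted p = 0.155), which did not pass.

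Klf5, which drives growth in gut epithelium and smooth muscle, was 817, 667, 689 and 1046 in TSA+DP cells, 1153, 674, 759.7 and 1051 in TSA cells, 699, 623, 399 and 893 in DP cells, and 777, 802, 488 and 902 in vehicle cells. No treatment separated from another. The TSA difference was 0.28 ± 0.16 (SE; adjusted p = 0.232), with a 95% interval of -0.05 to 0.61, and the other 2 sets leaned the other way, by -0.50 (adjusted p = 0.143) for 1451739_at and by -0.43 for the dim 1430255_at.

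Klf6, a broadly expressed early-response activator known from liver stellate cells, fell with TSA. Its signals were 1293, 1274, 1118 and 1505 in TSA+DP cells, 1502, 1459.6, 1484 and 1623 in TSA cells, 2492, 1735, 1973 and 2631 in DP cells, and 3027, 2051, 2416 and 3313 in vehicle cells. The 8 arrays with TSA all lay below the 8 without it. TSA changed it by -0.79 ± 0.12 (SE; adjusted p = 0.000199), a 1.73-fold fall, with line values of -0.99, -0.48, -0.69 and -1.01. The next sets gave -0.73 ± 0.14 (SE; adjusted p = 0.0016) for 1447448_s_at and -0.51 ± 0.12 (SE; adjusted p = 0.00766) for 1427742_a_at. Set 1418280_at differed by -0.37 (adjusted p = 0.248). The dim 1459718_x_at was called at -1.09, yet only 2 vehicle arrays reached 200 in it. The call of 1427742_a_at ended without triCH1flox1, flox1 or flox2 (adjusted p = 0.112, 0.0524 and 0.051), and that of 1459718_x_at without triCH1flox1, triCH1flox2 or flox1 (0.0645, 0.168 and 0.135).

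Klf7, expressed widely and known for its part in sensory neuron development, fell more steeply. Its signals were 540.1, 563, 412 and 543 in TSA+DP cells, 685.8, 602, 560.3 and 559 in TSA cells, 1083, 912, 1286 and 1427 in DP cells, and 1322, 1386, 1782 and 1565 in vehicle cells. Again no array with TSA reached the lowest array without it. The TSA change was -1.26 ± 0.13 (SE; adjusted p = 8.6e-06), a 2.39-fold fall, with line values of -0.90, -1.14, -1.59 and -1.41. Sets 1419354_at and 1419356_at also fell, with changes of -0.96 ± 0.19 (SE; adjusted p = 0.00173) and -0.96 ± 0.18 (SE; adjusted p = 0.00108), while 1419355_at, at -0.48, did not pass (adjusted p = 0.206).

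Klf3, a CtBP-dependent repressor with roles in red cell and fat cell differentiation, had the largest fall by brightest set. Its signals were 953, 1043, 933 and 985 in TSA+DP cells, 794, 1159, 1287 and 1384 in TSA cells, 3156, 2461, 2192 and 2186 in DP cells, and 2982, 3301, 2169 and 4071 in vehicle cells. The 8 arrays with TSA, at most 1384, lay below the 8 without it, at least 2169. TSA changed it by -1.39 ± 0.16 (SE; adjusted p = 1.38e-05), a 2.62-fold fall, with line values of -1.85, -1.47, -0.73 and -1.52; flox1, whose vehicle array had the high 3′ to 5′ ratios, moved least, and the part of those ratios was not tested. It ranked 112 from the bottom of all sets. Of the other tested sets, 1429360_at (-1.06), 1431630_a_at (-0.85) and the dim 1421604_a_at (-1.30) fell, and 1441200_at was 0.18 (adjusted p = 0.723). Without triCH1flox2, 1431630_a_at and 1421604_a_at no longer passed (adjusted p = 0.157 and 0.0693), nor did 1431630_a_at without flox2 (0.0817).

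Klf9, Klf10 and Klf13 belong to the branch that binds Sin3a. Klf9, a target of glucocorticoid and thyroid hormone, had signals of 1732, 1421, 1845 and 1383 in TSA+DP cells, 1297, 1370.4, 1567 and 1526 in TSA cells, 2282, 1639, 2863 and 2409 in DP cells, and 1597, 1762, 2174 and 2378 in vehicle cells. Its TSA arrays were below its vehicle arrays by a narrow margin, 1567 against 1597 at the nearest. The change was -0.43 ± 0.13 (SE; adjusted p = 0.0217), down in 4 of 4 lines. With any 1 line left out it did not pass (adjusted p = 0.0636 to 0.107), and over all alternatives the adjusted p ran from 0.00897 to 0.107. Its other tested sets, at -0.44, -0.32 and -1.16, did not pass (adjusted p = 0.063, 0.124 and 0.0659).

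Klf10, an early target of TGF-beta, had signals of 1139.9, 735, 514 and 834 in TSA+DP cells, 566, 741, 518 and 611 in TSA cells, 1144, 896, 562 and 844 in DP cells, and 910.0, 997, 414 and 656 in vehicle cells. The 4 treatments overlapped one another. Its TSA difference was -0.21 ± 0.16 (SE; adjusted p = 0.395), with a 95% interval of -0.56 to 0.13.

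Klf13, which activates Ccl5 in T lymphocytes, had signals of 957, 1079, 1106 and 1389 in TSA+DP cells, 1365, 1016, 1193 and 1379 in TSA cells, 2190.3, 1696, 1516 and 2777 in DP cells, and 2148, 1594, 2347 and 2134 in vehicle cells. All 8 arrays with TSA were below the 8 without it. TSA changed it by -0.70 ± 0.15 (SE; adjusted p = 0.00274), a 1.63-fold fall, with line values of -0.63, -0.63, -0.95 and -0.61. Within the larger array series the change was -0.70 (adjusted p = 0.0574, the highest over its alternatives, which began at 0.000981). The dimmer 1432543_a_at changed by -0.49 ± 0.15 (SE; adjusted p = 0.0306), and its call was lost without the flox1 vehicle array (adjusted p = 0.106) and without any 1 of the lines (0.0824 to 0.156), in a range of 0.02 to 0.216 over all alternatives.

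**Figure D2:**
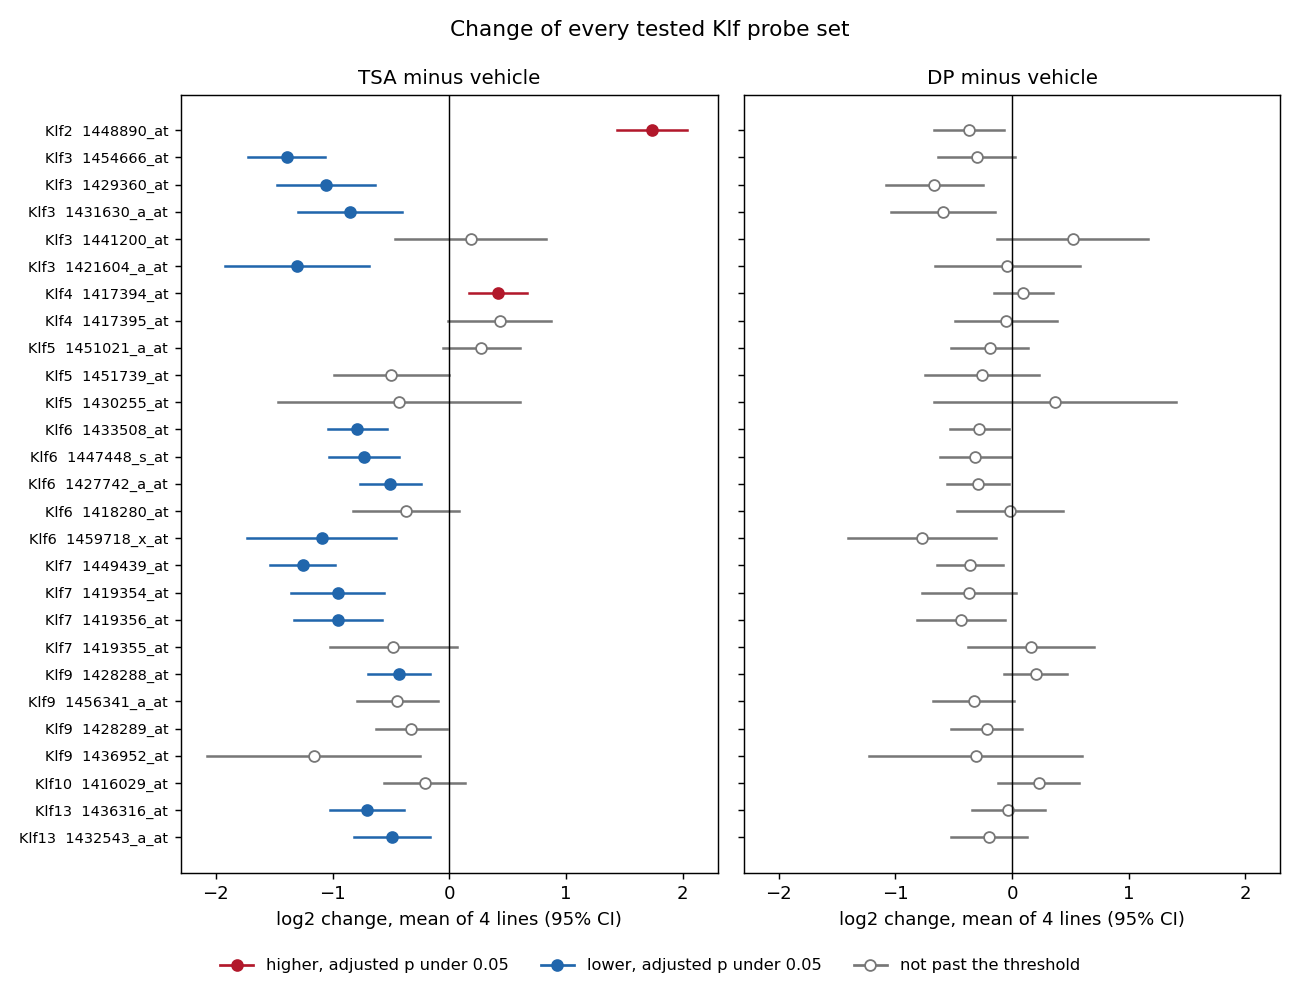
Log2 change with its 95% confidence interval for each of the 27 tested Klf probe sets, as the mean of 4 lines, for TSA minus vehicle (left) and DP minus vehicle (right); filled points passed an adjusted p of 0.05. On the left 2 sets are higher and 14 lower, and on the right 0 are filled.

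Without the flox1 vehicle array the TSA count was 15 of 27, with Klf4 among the sets that no longer passed, and Klf2 (1.75), Klf3 (-1.60), Klf6 (-0.82), Klf7 (-1.17), Klf9 (-0.52) and Klf13 (-0.56) stayed called. Within the larger array series, which leaves TSA against vehicle in 3 lines, 9 sets were called, and without triCH1flox2 10 were. Fewer arrays lower the power for every set, and the shares of all sets called in these settings are not given. Without the flox1 vehicle array Klf13 1432543_a_at and Klf6 1459718_x_at were lost too. The count of 15 therefore includes sets not called with all 16 arrays.

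TSA+DP was also set against DP, a comparison added after the data were seen. It has no array in common with TSA minus vehicle, but the filter and the variances of the fit come from all 16 arrays. Of the 27 Klf sets, 11 passed, 1 higher and 10 lower (40.7%), against 23.6% of all sets, 13.2% higher and 10.4% lower. Among sets at 200 or more on every array it was 9 of 16 Klf sets, against 29.5%. Klf2 changed by 1.65 ± 0.14 (SE; adjusted p = 1.18e-06), Klf3 by -1.29 ± 0.16 (SE; adjusted p = 2.41e-05), Klf7 by -1.11 ± 0.13 (SE; adjusted p = 2.36e-05) and Klf13 by -0.80 ± 0.15 (SE; adjusted p = 0.000981). Klf6, at -0.73 ± 0.12 (SE; adjusted p = 0.000349), and Klf9, at -0.50 ± 0.13 (SE; adjusted p = 0.00897), were also lower. Klf4 differed by 0.30, up in 4 of 4 lines without passing (adjusted p = 0.077). Klf5 and Klf10 differed by 0.31 and -0.10 (adjusted p = 0.171 and 0.711). The dim Klf6 set 1459718_x_at turned to 0.16 (adjusted p = 0.765).

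**Figure D3:**
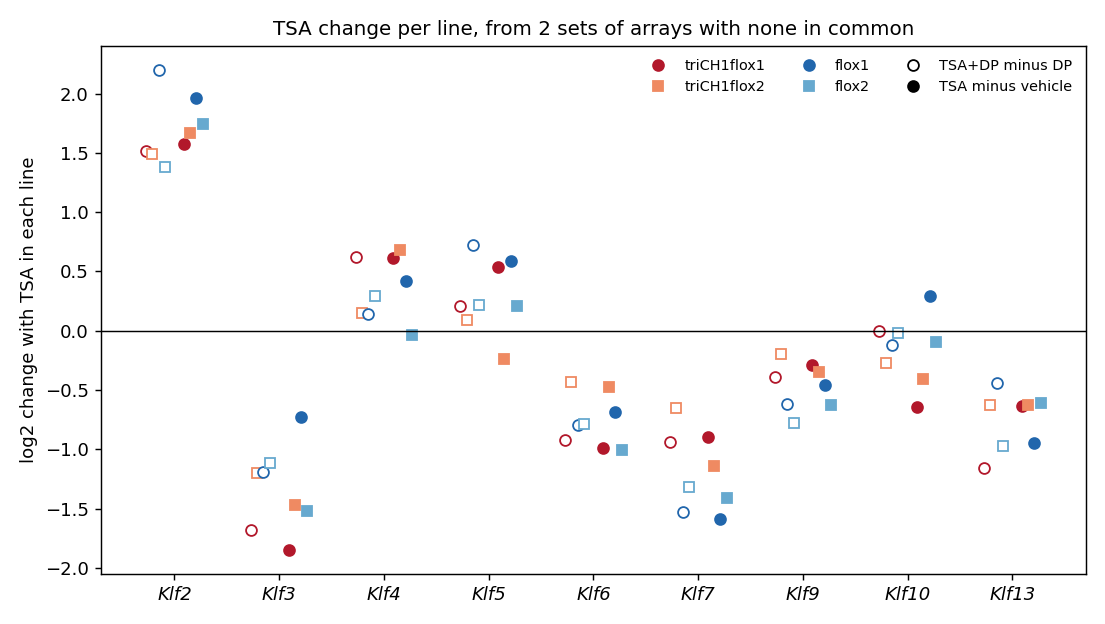
Log2 change with TSA in each line for the brightest set of each Klf gene; open points are TSA+DP minus DP and filled points TSA minus vehicle, which have no array in common. Klf2 lies between 1.38 and 2.20 in all 8 values, and Klf3, Klf6, Klf7, Klf9 and Klf13 lie below 0 in all of theirs.

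No Klf set had a TSA change that differed past the threshold between triCH1 and control lines. Class and sex cannot be told apart in these lines, and loss of the conditional alleles was not examined. The difference between triCH1 and control lines in their TSA change was called for 0 of 27 Klf sets and for 0% of all sets by limma, with 3 Klf sets at an unadjusted p under 0.05, as were 5.74% of all sets. These were Klf7 1419356_at at -1.11, Klf6 1447448_s_at at 0.76 and Klf6 1427742_a_at at 0.59, with an adjusted p of 0.825 for each in limma. For Klf2 the difference was -0.23, with a 95% interval of -0.83 to 0.37. For Klf3 it was -0.53, with an interval of -1.19 to 0.13, from 2 lines a class.

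TSA+DP against vehicle, which shares its vehicle arrays with the comparisons of TSA and of DP, called 15 of 27 Klf sets, 2 higher and 13 lower (55.6%), against 25.4% of all sets, 13.9% higher and 11.5% lower. Among sets at 200 or more on every array it was 11 of 16 Klf sets, against 32.1%. Klf2 was 1.28 higher, 2.43-fold (adjusted p = 9.52e-06). Klf3 changed by -1.60, Klf6 by -1.01, Klf7 by -1.47 and Klf13 by -0.83 (adjusted p = 3.55e-06, 1.87e-05, 1.75e-06 and 0.000694). Within the larger array series 10 of 27 sets were called, and Klf13, at -0.69, was not (adjusted p = 0.0813, in a range of 0.000354 to 0.0813 over its alternatives). Each of these 5 genes had all 4 TSA+DP arrays outside the range of the vehicle arrays, as did 12 of the 27 Klf sets and 21% of all sets. Klf4 was 0.40 (adjusted p = 0.0208), and without the flox1 vehicle array 0.30 (adjusted p = 0.103, in a range of 0.0146 to 0.334 over its alternatives). It did not pass without triCH1flox1 or flox1 either (adjusted p = 0.175 and 0.158). The brightest set of Klf9 did not pass (-0.29, adjusted p = 0.0993), whereas its set 1456341_a_at changed by -0.57 ± 0.16 (SE; adjusted p = 0.0167). Without that array the adjusted p of 1456341_a_at was 0.0616, and without triCH1flox2, flox1 or flox2 it was 0.177, 0.126 and 0.0537, in a range of 0.00763 to 0.177. Leaving that array out gave 12 of 27 called. For this count and that of the larger series, the shares of all sets called are not given. The larger series holds TSA+DP arrays of flox1 and triCH1flox2 only, so calls lost in it may reflect fewer arrays.

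DP alone called no Klf gene. Over 4 lines 0 of 27 Klf sets passed in limma, against 1.19% of all sets, 9 had an unadjusted p under 0.05, against 11.8% of all sets, and the lowest adjusted p was 0.159, for Klf3 1429360_at (-0.66). The median of the 27 sets was -0.26 and of all sets -0.01. Klf2 (-0.37), Klf5 (-0.19), Klf6 (-0.28) and Klf7 (-0.36) were down in 4 of 4 lines, with 95% intervals of -0.66 to -0.07, -0.52 to 0.14, -0.53 to -0.03 and -0.64 to -0.08. Klf9 (0.20) and Klf10 (0.23) were up in 3 of 4. Of the 27 sets, 12 were down in all 4 lines and 0 were up in all 4, against 8.88% and 7.76% of all sets; all these differences share the 4 vehicle arrays, and sets of 1 gene are not independent. Klf3 1431630_a_at and Klf6 1459718_x_at had every DP array below every vehicle array, as had 1.76% of all sets, and the Klf6 set passed the filter through 2 vehicle arrays alone. In triCH1 lines alone 0 of 27 passed, against 0.417% of all sets, with 4 at an unadjusted p under 0.05 (4.51% of all sets), and in control lines 0 of 27, against 1.03%, also with 4 (13.1% of all sets). The DP difference between the classes called 0 of 27, against 0.0151%, with 0 at an unadjusted p under 0.05 (4.91% of all sets).

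Of all sets, 0.136% passed with DP on top of TSA, 0.116% higher and 0.0201% lower. Of the 27 Klf sets 1 passed, Klf6 1427742_a_at, which was lower. Its signals were 601, 487, 569 and 609 in TSA+DP cells, 975.4, 978, 778 and 1009 in TSA cells, 1006, 857, 1151 and 1406 in DP cells, and 1302, 993, 1388 and 1805 in vehicle cells. The TSA+DP arrays all lay below the TSA arrays. The change was -0.67 ± 0.12 (SE; adjusted p = 0.0456), with line values of -0.66, -0.94, -0.42 and -0.68. The other 4 sets of Klf6 gave -0.22, -0.20, -0.33 and 0.48 (adjusted p = 0.928, 0.972, 0.964 and 0.963). Of them 1433508_at and 1447448_s_at were down in all 4 lines and 1459718_x_at was up in all 4. The fall thus passed in 1 of 5 sets. The call did not hold when any 1 line was left out (adjusted p = 0.337 to 0.773). It was also lost without the line term (adjusted p = 0.276) and within the larger array series. That series holds TSA+DP arrays of flox1 and triCH1flox2 only. The departure from additivity of TSA and DP was called for 0 of 27 Klf sets, against 0.256% of all sets, with 2 at an unadjusted p under 0.05 in limma (5.56% of all sets): Klf6 1459718_x_at at 1.25 and Klf6 1427742_a_at at -0.38 (adjusted p = 0.681 and 0.886).

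**Figure D4:**
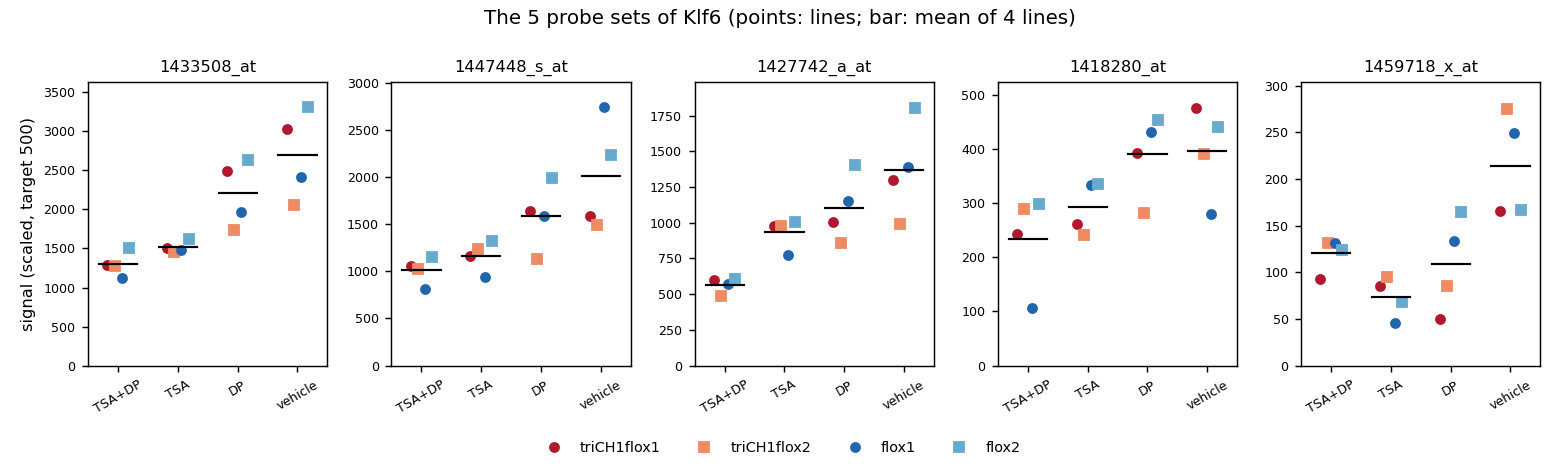
Signals of the 5 Klf6 probe sets (scaled intensity, separate vertical axes from 0) under TSA+DP, TSA, DP and vehicle; points are lines on single arrays and bars means of 4 lines. In 1427742_a_at the TSA+DP arrays lie between 487 and 609 and the TSA arrays between 778 and 1009, while in 1459718_x_at all but 2 vehicle arrays are under 200.

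Averaged over treatments, triCH1 and control lines did not differ past the threshold in any Klf set (0 of 27, against 0.0854% of all sets), with 2 at an unadjusted p under 0.05 in limma on 4 line means (9.93% of all sets). Klf9 1456341_a_at was -0.49 in triCH1 relative to control lines and Klf10 was 0.49 (adjusted p = 0.289 and 0.431). Without flox2, which leaves flox1 as the lone control line, assumed to vary like the others, Klf10 was 0.75 higher and passed (adjusted p = 0.0439, in a range of 0.0439 to 0.933 over its alternatives). Class and sex cannot be told apart here: Xist read 2109 to 3067 on triCH1 arrays and 26.5 to 246 on control arrays, and Y-linked Eif2s3y 8.9 to 82.9 and 974 to 1519.

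Over the 16 arrays, with each line's mean removed, most members followed 1 of 2 opposite patterns, described here with no test because all arrays share the 4 treatments. Among the 5 genes that fell with TSA, the 10 pairwise Pearson correlations of log2 signal ran from 0.63 to 0.95, highest for Klf6 with Klf7. Klf2 correlated with the same 5 at -0.86 to -0.81, with Klf5 at 0.75 and with Klf4 at 0.70. Klf10 reached 0.47 with Klf9 and less in size with the others. The genes most like each member were Elovl5 (0.98) and Dhcr7 (0.98) for Klf2, Zcchc9 (0.98) and Tns3 (0.97) for Klf3, and Rnf24 (0.92) and Inpp5f (0.91) for Klf4. For Klf5 they were Ppm1l (0.91) and Lrrfip2 (0.89), for Klf6 Arl2bp (0.98) and Adam19 (0.96), and for Klf7 Ccar1 (0.98) and Asxl1 (0.97). For Klf9 they were Dnajb4 (0.94) and Ripor2 (0.94), for Klf10 Commd8 (0.93) and Fcho2 (0.92), and for Klf13 Ino80 (0.96) and Gar1 (0.95).

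In the wider Klf and Sp family 1 gene passed with TSA. Of 17 other members listed, 14 had a probe set and 7 were tested, each by its brightest set. Of these 0 were higher and 1 was lower, with a median of 0.0019. Of all sets, not of brightest sets alone, 12.3% were higher and 9.9% lower. That gene was Sp1, the ubiquitous GC-box factor, which fell by 1.15 ± 0.12 with TSA (SE; adjusted p = 9.45e-06). Its mean was 1409 ± 262 in TSA+DP cells, 1502 ± 146 in TSA cells, 2954 ± 561 in DP cells and 3390.0 ± 314 in vehicle cells (SD, n = 4 each). The other tested members were dimmer, with vehicle means from 155 for Sp6 to 451 for Klf16. The SEs of their TSA changes were also larger, from 0.20 for Klf16 to 0.38 for Sp6. Their missing calls therefore do not show that TSA left them unchanged.

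Among 18 tested cofactors and regulators of the family, each by its brightest set, TSA raised 4 and lowered 5, with a median of -0.19. Of all sets, not of brightest sets alone, 12.3% were higher and 9.9% lower. Of 3 acetyltransferases in this list, 2 fell over the 4 lines and Kat2b did not pass (-0.28, adjusted p = 0.109). Ep300 fell by 1.59 ± 0.18 (SE; adjusted p = 1.98e-05) and Crebbp by 1.56 ± 0.14 (adjusted p = 2.12e-06); where their probes lie relative to the deleted parts was not examined, so they check no genotype. The Klf3 corepressor Ctbp2 fell by 0.69 ± 0.10 (adjusted p = 0.000144). Sap30, a subunit of the Sin3a complex, rose by 1.46 ± 0.13 with TSA (adjusted p = 1.31e-06) and by 1.79 ± 0.13 with DP (adjusted p = 2.62e-07), the one cofactor called with DP alone.

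Of 14 tested genes reported as Klf targets, each by its brightest set, TSA raised 1 and lowered 3, with a median of -0.11. The 4 called are a share near the 22.2% of all sets. That figure counts sets and not genes, and the share over brightest sets is not given. Tgfbr1, a TGF-beta receptor reported as a target of Klf6, rose by 0.52 ± 0.13 (adjusted p = 0.00971). Smad7, the inhibitory Smad, fell by 0.72 ± 0.15 (adjusted p = 0.00233), and Pdgfa, a platelet-derived growth factor chain, by 0.46 ± 0.15 (adjusted p = 0.04). Cdkn1a, the p21 cell cycle inhibitor, fell by 0.28 with TSA and rose by 0.52 ± 0.10 with DP (adjusted p = 0.00845), the one target called with DP.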

How the data were processed

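RNA of 16 samples was measured on arrays; the intensity of each probe set was deposited by the authors as a signal from Affymetrix's statistical algorithm with target 500, per the labels, and its 2% trimmed mean was 500.003 on every array. Of 45101 probe sets, 34945 had 1 gene symbol, 932 several and 9160 none; only the first kind was used, and 19895 with a signal of at least 200 on at least 2 arrays were tested. Values were log2(signal + 50). Versions of the upstream software are not given in the sources used.

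Limma 3.58.1 (R 4.3.3) was fitted over all 19895 sets with 8 class and treatment means, a line term within each class and empirical Bayes variances with a trend (6 residual, 9.58 prior degrees of freedom); the classes were compared on 4 line means. P-values were adjusted by Benjamini and Hochberg within each comparison, with a threshold of 0.05. The steps were tested on simulated data. The pairing behind the line term comes from each cell line having had all 4 treatments. With group means removed, 2 arrays from 1 line correlated at 0.0454 to 0.317 (triCH1) and 0.105 to 0.275 (control), against -0.0172 to 0.137 for equal numbers in the other class. No 2 arrays were identical.

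Named were all Klf probe sets, the 2 genes most like each member by correlation, up to 4 genes of each list of family members, cofactors and reported targets with the smallest adjusted p, and Bnip3 and Cdkn1a as checks; Xist and Eif2s3y were named after their values were seen. The members and lists were chosen with earlier results of these data known. Precision is limited by the number of arrays. Alternatives were another pseudocount (16, 200), no filter or one at 500, quantile normalization, the brightest set per gene, no line term, no variance trend, array weights, an array series term or the larger series only, each line left out, and the flox1 vehicle array left out; TSA+DP minus DP was added after seeing the data. Figures used Python 3.11.15 and matplotlib 3.10.9.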

Additional observations from a re-analysis of the deposited data

Results flagged for a closer look

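Among the brightest sets, 3 of 36 sets of 4 line changes held 1 line whose gap to the others exceeded 0.829 of the whole range; chance gives about 1 in 20. For Klf10 with DP, triCH1flox2 changed by -0.15 on the log2 scale while the other 3 lines changed by 0.31 to 0.40. For Klf10 with TSA+DP the same line changed by -0.41, against 0.28 to 0.32 in the others; both use its one vehicle array, at 996.9 the highest of the vehicle arrays for Klf10. For Klf13 with TSA, flox1 changed by -0.95, against -0.63 to -0.61 in the others; its vehicle array had the high 3′ to 5′ ratios, whose part in the value was not tested.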

How the results depend on the processing

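The TSA count of 16 Klf sets became 7 of 9 with the brightest set per gene, 9 within the larger array series and 10 to 15 with a line or the flox1 vehicle array left out; the TSA+DP count of 15 became 6 of 9 with the brightest set per gene, 10 within the larger series and 11 to 13 with a line or that array left out. The single call of DP on top of TSA became 0 at a pseudocount of 200, with the brightest set per gene, without the variance trend, with a term for array series and within the larger series, and was 0 to 1 with a line or array left out. The class count of 0 was 0 to 1 with a line left out, the 1 being Klf10 1416029_at without flox2, named after its values were seen. Counts of 0 for DP alone, its class difference, the TSA class difference and additivity stayed 0 under every alternative run. Pairing: without the replicate block (the line term) the TSA count was 14, the TSA+DP count 13 and the count of DP on top of TSA 0, with 0 still called for DP. Among called values, the sign of Klf6 1459718_x_at with TSA turned, at 0.16 in TSA+DP minus DP; the cause was not tested. Among DP differences that did not pass, Klf13 (-0.03) ran from -0.28 to 0.21 and Klf4 (0.10) from -0.02 to 0.21. Klf2, Klf3 1454666_at, Klf6 1433508_at and Klf7 1449439_at kept their TSA and TSA+DP calls under all alternatives run for them. For the Klf counts above, the shares of all sets called under the same alternatives are not given. Whether Klf calls changed more than those of other sets is therefore not shown. With 2 lines a class and low-signal sets near background, small differences are beyond these arrays.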
